A study of Mus musculus and Rattus norvegicus with 24 samples.

Results

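Fabp3, Cd36, Fabp4 and Acsl1 are 4 genes whose proteins bring long-chain fatty acids into a cell, carry them through the cytosol and activate them. They were taken by symbol, with earlier results of these data known, and all 4 were among the 9595 genes listed in the counts. Their levels were read in 24 single cells, 8 in each of 3 groups. Transplanted cells were cardiomyocytes made from a mouse embryonic stem cell line and recovered from a neonatal rat heart after 30 days. Cultured cells were made from the same line and stayed in vitro for 30 days. Both carry the genotype the labels write as mESCIsl1-Cre; Rosa-RFP; aMHC-GFP, in which Cre driven from Isl1, a gene of heart progenitors, switches on the red reporter and the alpha myosin heavy chain promoter drives the green one. Adult cells were ventricular cardiomyocytes of adult wild-type rats. Some cells were sorted by flow cytometry and some taken manually, without a record of which. Since no animal, graft or culture is named, each group stands for 1 sample, cells were not used as replicates and no test between groups was made. Adult cells were rat and the other groups mouse, so species and group cannot be told apart in any comparison with adult cells.

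Fatty acids are the main fuel of the adult heart, while the fetal heart burns more glucose and lactate. CD36 is the membrane protein through which cardiomyocytes take up much of their long-chain fatty acid, FABP3 is the heart fatty acid binding protein that carries it in the cytosol, and ACSL1 is the main heart enzyme that couples it to coenzyme A. FABP4 is the related binding protein of adipocytes, macrophages and capillary endothelium. The resulting acyl-CoA enters mitochondria through the carnitine shuttle and is broken down by beta oxidation, and many genes of this route are known targets of the PPAR nuclear receptors.

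The sequences before the start sites of the members are shown first, since Fabp3 and Cd36 were both higher in transplanted and adult cells than in culture. RefSeq's promoter table (GRCm38.p6) held an entry for 3 of the 4 members, and Fabp4 had none. Each run below is the 250 bases before the listed start, 5′ to 3′ on the gene's own strand. Capitals mark matches, on either strand, to AGGTCA (the half-site bound by nuclear receptors), to the DR1 element (a direct repeat that contains that half-site on each side of 1 base), to TATAAA (the TATA box), to GGGCGG (the GC box) and to CCAAT (the CCAAT box).
Fabp3, chr4:130308488-130308737, + strand: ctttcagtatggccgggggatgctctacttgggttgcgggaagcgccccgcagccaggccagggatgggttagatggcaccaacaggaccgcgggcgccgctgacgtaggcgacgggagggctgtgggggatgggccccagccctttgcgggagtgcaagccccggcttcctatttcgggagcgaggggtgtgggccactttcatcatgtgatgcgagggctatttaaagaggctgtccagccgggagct
Cd36, chr5:17835897-17836146, - strand: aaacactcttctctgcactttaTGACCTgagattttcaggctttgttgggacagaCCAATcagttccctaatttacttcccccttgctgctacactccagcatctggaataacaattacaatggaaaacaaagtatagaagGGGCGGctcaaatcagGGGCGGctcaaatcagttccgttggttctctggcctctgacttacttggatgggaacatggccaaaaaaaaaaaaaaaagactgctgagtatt
Acsl1, chr8:46470787-46471036, + strand: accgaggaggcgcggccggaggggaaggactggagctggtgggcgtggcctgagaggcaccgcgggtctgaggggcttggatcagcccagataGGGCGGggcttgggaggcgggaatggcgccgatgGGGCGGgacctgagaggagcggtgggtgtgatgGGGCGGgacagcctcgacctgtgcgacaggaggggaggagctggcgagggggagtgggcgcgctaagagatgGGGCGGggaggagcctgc
The Fabp3 window held no match to any of the 5 motifs. The Cd36 window held the half-site once, read as TGACCT, from 228 to 223 bases before the start, the CCAAT box from 195 to 191 bases before it, and the GC box at 109 to 104 and at 93 to 88 bases before it. The first Acsl1 window held the GC box in 4 places, the nearest 18 to 13 bases before the start. Of all 32851 windows of this length in the table, 14.0% held the half-site, 0.0335% the DR1 element, 12.4% the TATA box, 32.7% the GC box and 33.8% the CCAAT box. GC content was 64.8% for Fabp3, 43.2% for Cd36 and 72.0% for Acsl1, against a median of 52.4% over all windows. A match is a description of these letters, and a missing match says nothing of a factor. The Fabp3 entry starts 143 bases inside the start of the gene in GENCODE M21, so the last 143 bases of its window lie within the gene as annotated there. The Cd36 entry starts 52.9 kb inside the outermost start of the gene in GENCODE M21, so other starts of this gene were not read. The table also held a second Acsl1 start, 19.9 kb downstream, whose window had a GC content of 48.4% and the CCAAT box in 2 places.

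Total counts ran from 16099 to 60789 per cultured cell, from 88796 to 344224 per transplanted cell and from 108546 to 223744 per adult cell. Levels are in CPM, the counts scaled to a total of 1000000 per cell or per group, brackets hold exact 95% intervals, and these intervals cover counting error only. In a group sum, 0 counts allow a level of up to 14.6 CPM in cultured, 2.30 CPM in transplanted and 2.36 CPM in adult cells, a floor of 3 counts. The cultured cells also differed in what was counted. Rn45s, the ribosomal RNA precursor, made up a median of 7.02% of their counts against 1.20% in transplanted and 1.23% in adult cells. Rpph1 made up as much as 5.48% of the counts of a cultured cell, and at most 0% in transplanted and 0.00179% in adult cells. With every cell thinned to 16099 counts, the total of the shallowest, the median number of genes expected per cell was 1460 in cultured, 606 in transplanted and 687 in adult cells. The count-weighted median exon length of their genes, Ttn left out, was 3730 to 6983 bp per cell against 1950 to 2304 bp in transplanted and 2044 to 2353 bp in adult cells. All 12 cardiomyocyte markers were listed, and their summed share was 15.3% to 22.8% in transplanted and 15.9% to 22.4% in adult cells but 0% to 16.8% in cultured cells, where cell G had none of the 12. Of the 10633 cultured marker counts 9301 were of Ttn, and in transplanted cells Myh6, Ttn and Ryr2 were at least 2-fold lower than in culture while the other 9 were higher. The part that these differences had in the values below was not tested.

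Fabp3 was near 0 in culture and among the most abundant transcripts of transplanted and adult cells. In culture it had 1 count, in cell H (41.9 CPM), and 0 counts in the other 7 cells. In the transplanted cells its level was lowest in cell C at 3975 CPM, had a median of 6242 CPM and was highest in cell F at 9778 CPM. In the adult cells it was lowest in cell F at 4192 CPM, had a median of 6252 CPM and was highest in cell E at 8785 CPM. All 16 transplanted and adult cells were therefore above all 8 cultured cells, and the ranges of transplanted and adult cells overlapped nearly in full. Of all measured genes, those with at least 10 counts over both groups, 1.33% had every transplanted cell above every cultured cell, and 1.27% had every adult cell above every cultured cell. The reverse held for 0.101% and 0.0585%.

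Summed over cells, Fabp3 stood at 4.85 CPM (0.123 to 27.0) in cultured, 7183 CPM (7039 to 7330.4) in transplanted and 6273 CPM (6136 to 6412) in adult cells. The transplanted level was 1481-fold the cultured one (266 to 58505), and it became at least 436-fold without cultured cell H, which held the only count. The adult level was 1293-fold the cultured one (232 to 51089), and it became at least 381-fold without that cell. Both ratios use the same cultured cells. The adult level was 1.15-fold lower than the transplanted one (1.11 to 1.18), and leaving out any single cell left the ratio of adult to transplanted between 0.830 and 0.994. A difference of this size was within the spread between cells, whose coefficient of variation was 0.343 in transplanted and 0.260 in adult cells.

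Cd36 had no count in any cultured cell, and it was found in 5 of 8 transplanted and 7 of 8 adult cells. The transplanted cells held 5133 CPM in D, 2625 CPM in B, 1218 CPM in G, 268 CPM in A and 11.3 CPM, a single count, in C. The adult cells held 2437 CPM in B, 2358 CPM in H, 1900.3 CPM in C, 396 CPM in F, 221 CPM in G, 121 CPM in E and 58.6 CPM in D. In both groups some cells were thus high and others near or at 0, in contrast to Fabp3. Transplanted cells E, F and H had no count in totals that allow up to 15.3, 19.8 and 8.72 CPM, and adult cell A had none in a total that allows up to 13.4 CPM. The zeros in culture leave more room, since 0 counts in 1 cultured cell allow from 49.4 CPM in cell B up to 186 CPM in cell E.

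The summed Cd36 level was 990.1 CPM (937 to 1046) in transplanted and 918 CPM (866 to 972) in adult cells. It was at least 68.0-fold higher in transplanted than in cultured cells and at least 29.2-fold higher without transplanted cell D, which held 62.2% of the counts. In adult cells it was at least 63.1-fold higher than in the same cultured cells, and between 43.4-fold (without adult cell H) and 76.5-fold (without adult cell A) as a bound when single cells were left out. Between adult and transplanted cells the sums differed by 1.08-fold (0.996 to 1.17), lower in adult, but this rested on single cells. Without transplanted cell D the adult level was 2.16 times the transplanted one, and without adult cell H it was 0.637 times. The coefficient of variation of Cd36 was 1.60 in transplanted and 1.16 in adult cells. Of the 178 genes within 2-fold of its summed level in transplanted cells 19.7% had a larger one, and of the 198 such genes in adult cells 52.0% did.

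Fabp4 was counted only in transplanted cells, in 3 of 8: 1088 CPM in G, 620.1 CPM in D and 32.0 CPM in H. All 8 cultured and all 8 adult cells were at 0. The sum was 167 CPM (145 to 190.3), at least 11.4-fold above the cultured floor, and 7.19-fold without cell D or 6.17-fold without cell G as a bound. The adult level was at least 70.6-fold lower than the transplanted one, at least 44.4-fold without cell D and 38.1-fold without cell G. Counts in transplanted cells alone were seen for 264 of 5770 genes, 4.58% of those with at least 10 counts over all cells. The zeros in adult cells are rat reads set against the mouse build, and Fabp4 was the member with the largest difference between these groups.

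Because FABP4 also marks other cell types, their markers were read in the same cells. Of 15 endothelial markers 7 were listed, and transplanted cell G, the highest in Fabp4, held 63 counts of Ly6c1 and 1 of Pecam1, 0.0639% of its total. The other listed endothelial markers, Cdh5, Kdr, Esam, Egfl7 and Eng, had no count in cell G. Cells D and H, with 97 and 11 counts of Fabp4, had 0 counts of all 7, as had the other transplanted cells and all adult cells. None of the 6 adipocyte markers was listed. Of the 2 listed macrophage markers, Cd68 had 21 counts in cultured cell B, and both were at 0 in transplanted and adult cells. The 7 listed fibroblast markers had 0 counts in transplanted cells, 1 in adult and 155 in cultured cells. The 6 listed markers of smooth muscle and pericytes had 147 counts in cultured, 12 in transplanted and 669 in adult cells. Acta2 alone gave 127 of the cultured, 1 of the transplanted and 666 of the adult counts. Whether the Ly6c1 and Pecam1 counts of cell G bear on its Fabp4 and Cd36 levels was not tested.

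Acsl1 was low and scattered in all 3 groups, and the group sums differed by 1.30-fold to 2.02-fold. Cultured cell B held 13 counts (214 CPM) and the other 7 cultured cells none. Transplanted cells held 441 CPM in D, 258 CPM in B, 120 CPM in A and 99.8 CPM in G, and none in the other 4. Adult cells held 677 CPM in H, 111 CPM in C and 21.4 CPM in E, and none in the other 5. Cultured cell B, the deepest cultured cell at 60789 counts, also held 21 counts of Cd68, a macrophage marker. It held 26 of Fn1, 16 of Col1a2 and 10 of Pdgfra, fibroblast markers. Cultured cells without an Acsl1 count held such markers too, H with 37 of Fn1 and 13 of Pdgfra, C with 18 of Pdgfra. C1qb, Col3a1, Dcn, Lum and Postn had no count in culture. The part of these markers in the Acsl1 level of cell B was not tested. The ranges of the 3 groups overlapped, and in each the sum rested on 1 cell, which held 53.9% of the transplanted and 88.3% of the adult counts. In the 7 cultured cells other than B, 0 counts allow at least 108 CPM, above the transplanted group level, so a difference of that size was not detectable in single cultured cells.

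The summed Acsl1 level was 63.1 CPM (33.6 to 108) in cultured, 98.2 CPM (82.0 to 117) in transplanted and 127 CPM (109 to 149) in adult cells. The ratio of transplanted to cultured was 1.56 (0.879 to 3.01), under the 2-fold used as a call. It was 0.816 without transplanted cell D, 2.12 without transplanted cell H and at least 4.76 without cultured cell B. The ratio of adult to cultured was 2.02 (1.15 to 3.88), 0.284 without adult cell H and at least 6.17 without cultured cell B, and between 1.75 and 1.86 without any other cultured cell, which ends the call. The ratio of adult to transplanted was 1.30 (1.02 to 1.65), 0.182 without adult cell H and 2.48 without transplanted cell D. No direction for Acsl1 held over these cells.

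**Figure D1:**
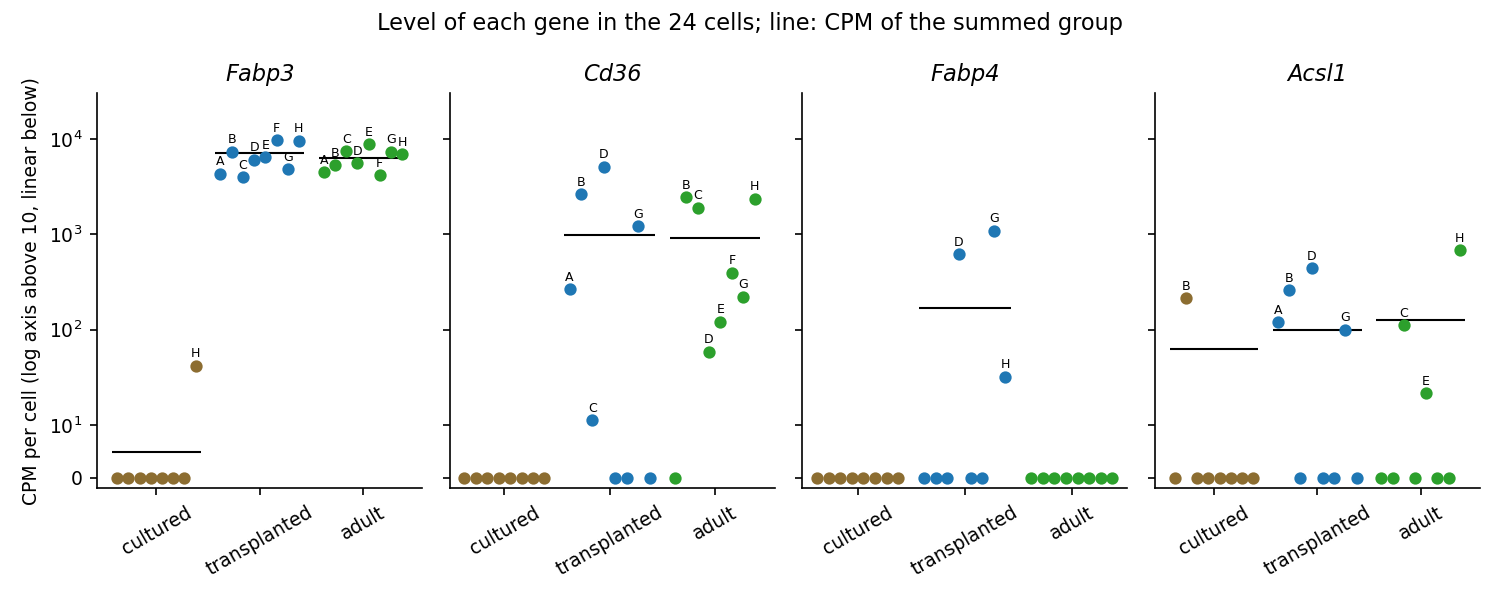
CPM per cell (y axis, logarithmic above 10 and linear below) of Fabp3, Cd36, Fabp4 and Acsl1 in the 8 cultured, 8 transplanted and 8 adult cells (x axis), with cell letters on nonzero points and a line at the CPM of the summed group. Fabp3 lies at 3975 CPM or more in all 16 transplanted and adult cells, while Cd36 spreads from 0 to 5133 CPM, and Fabp4 is above 0 only in transplanted cells D, G and H.

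As background for these ratios, 22.5% of the 4958 genes measured in transplanted and cultured cells were at least 2-fold higher in transplanted cells and 64.0% at least 2-fold lower, 86.4% in all. In this comparison 3 of the 4 members were at least 2-fold higher, Acsl1 was not, and none was lower. Between adult and cultured cells 23.0% of 5132 genes were higher and 62.1% lower, 85.2% in all, and 3 members were higher, Acsl1 by a margin that single cells ended, while Fabp4 had no counts to compare. Between adult and transplanted cells 44.3% of 3501 genes were higher and 34.8% lower, 79.1% in all. There Fabp4 was lower and the other 3 members lay within 2-fold. The median log2 ratio over all measured genes was -5.63, -3.85 and 0.37 in these comparisons with a pseudocount of 1 CPM, and the first was -4.04 with zeros set to the floor. These shares depend on the minimum: with at least 50 counts 44.1% and 43.7% of genes were higher against culture in transplanted and adult cells, and with no minimum 13.5% and 13.9%. Fewer genes kept their call when each cell was left out in turn. In transplanted against cultured cells 8.96% stayed higher and 32.3% lower, and in adult against cultured 9.28% and 30.2%. In adult against transplanted cells 11.4% stayed higher and 6.28% lower.

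**Figure D2:**
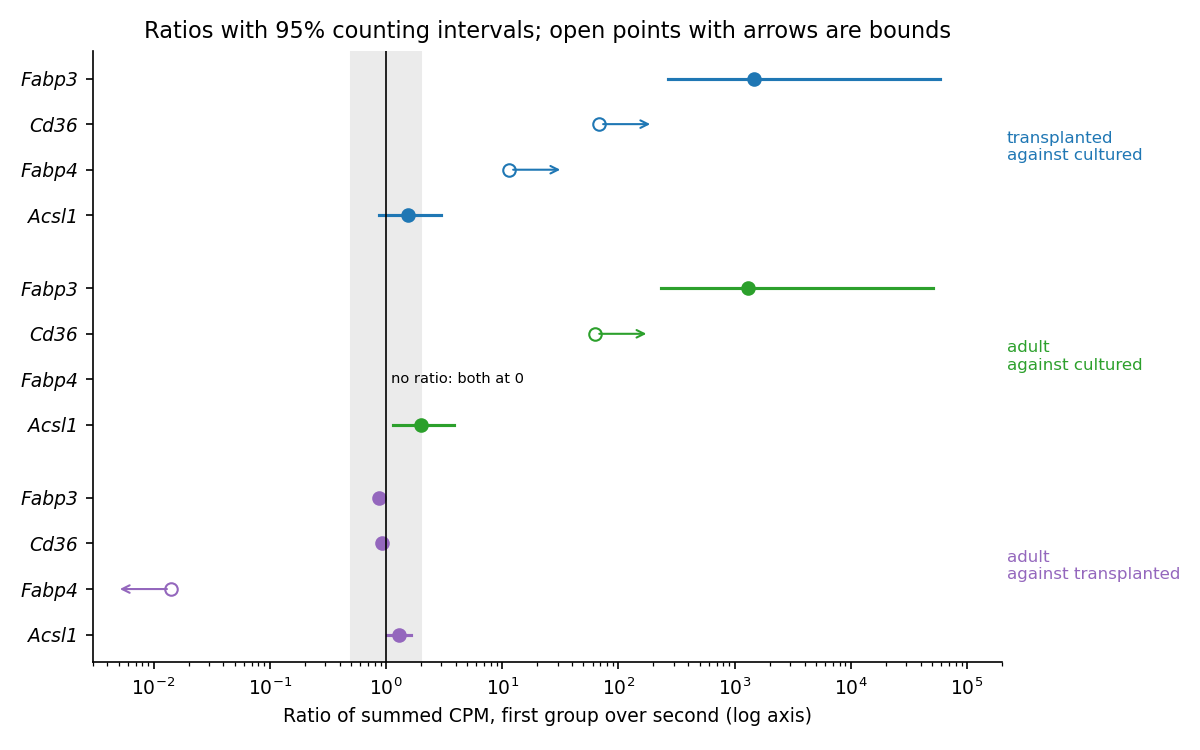
Ratio of summed CPM, first group over second (x axis, logarithmic), for each member in the 3 comparisons (y axis), with exact 95% counting intervals as bars and open points with arrows for bounds to a floor of 3 counts; grey marks ratios within 2-fold. Fabp3 stands at 1481 and 1293 against cultured cells, Cd36 at bounds of 68.0 and 63.1, and Acsl1 at 1.56 and 2.02.

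Levels of different genes were compared per kilobase of exon, since longer transcripts give more reads. In transplanted cells Fabp3 stood at 8728 CPM per kb, Cd36 at 276, Fabp4 at 37.1 and Acsl1 at 9.37. In adult cells Fabp3 stood at 7622 CPM per kb, Cd36 at 256 and Acsl1 at 12.2. Fabp3 ranked 16 in transplanted and 19 in adult cells by this measure, over the 3110 and 3637 genes with a count and a length. Cd36 ranked 230 and 239, and Acsl1 ranked 1557 and 1473. Per length, the summed RNA of Fabp3 thus exceeded that of Cd36 31.6-fold in transplanted and 29.8-fold in adult cells. These ratios of sums do not describe single cells. Transplanted cell D, with 62.2% of the transplanted Cd36 counts, held 6048 CPM of Fabp3 and 5133 CPM of Cd36, not divided by length. Transplanted cells E, F and H and adult cell A held no Cd36. Exon lengths were the union over transcripts, 823 bp for Fabp3, 3590 bp for Cd36, 4489 bp for Fabp4 and 10483 bp for Acsl1. With the longest transcript that has a RefSeq mRNA, a choice added after the values were seen, Fabp4 stood at 186 CPM per kb and Acsl1 to 25.2 in transplanted and 32.7 in adult cells, and the order of the members was the same.

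In mm10 coordinates of GENCODE M21, Fabp3 lies on chromosome 4 from 130308595 to 130315463 (+ strand) and Cd36 on chromosome 5 from 17781690 to 17888801 (- strand). Fabp4 lies on chromosome 3 from 10204088 to 10208576 (- strand), and Acsl1 on chromosome 8 from 46471037 to 46536051 (+ strand). Counts were given per gene, so transcripts of the same gene were not told apart. Fabp3 overlaps Zcchc17 at its end on the other strand, and the strand setting of the counting is not given in the sources used here. Gm10570 overlaps exons of Fabp3 at its start and Gm45244 exons of Acsl1, both on the other strand and neither in the list. Zcchc17 had 0 counts in cultured and transplanted cells and 163 in 1 adult cell. A processed pseudogene copy, Fabp3-ps1 on chromosome 10, is not in the list, so reads that fit both could not be told apart.

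Together the 4 members took 0.844% (0.828 to 0.860) of the counts of transplanted cells, 0.732% (0.717 to 0.747) of those of adult cells and 0.00679% of those of cultured cells. The share ran from 0.399% to 1.22% per transplanted cell and from 0.446% to 0.997% per adult cell. Fabp3 supplied 85.1% of the transplanted and 85.7% of the adult member counts, so the summed share mainly follows Fabp3.

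Thinning to a common depth left Fabp3 in all transplanted and adult cells and lowered the number of cells in which the other members were seen. When every cell was thinned to 16099 counts, the total of the shallowest, the expected number of cells with a count was 8 and 8 for Fabp3 in transplanted and adult cells and 0.674 in cultured cells. For Cd36 it was 4.17 transplanted and 6.48 adult cells, from 5 and 7 before thinning, and for Fabp4 2.41 transplanted cells, from 3. For Acsl1 it was 0.982 cultured, 3.69 transplanted and 2.16 adult cells, from 1, 4 and 3.

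Within the transplanted group Cd36 and Acsl1 were found in the same cells. Cells A, B, D and G had both, cell C had 1 count of Cd36 alone, and E, F and H had neither. In the adult group C, E and H had both, B, D, F and G had Cd36 alone and A had neither. Spearman's rho between the 2 genes was 0.94 over the 8 transplanted cells, 0.38 over the 8 adult cells and 0.64 over all 24, where it also reflects the differences between groups. Cd36 and Fabp3 had a rho of -0.12 over the 16 transplanted and adult cells. These are descriptions over cells that differ in depth.

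The number of genes detected per cell moved with Cd36. At 88796 counts, the total of the shallowest transplanted or adult cell, transplanted cells A, B, D and G showed 931, 1369.6, 807 and 1059 genes, and C, E, F and H showed 549 to 636. The 4 transplanted cells with Acsl1 and with at least 38 counts of Cd36 were thus the 4 with the most genes. In the adult group cells B, C, G and H showed 963 to 1617 genes and A, D, E and F showed 607 to 755. Adult B, C and H were the 3 highest in Cd36, at 1900.3 CPM or more, while G stood at 221 CPM, below F. Spearman's rho of Cd36 with genes per cell was 0.73 in transplanted and 0.76 in adult cells, that of Acsl1 0.76 and 0.41, and that of Fabp3 -0.02 and 0.45. With total counts, rho was -0.41 and -0.40 for Cd36 and 0.62 and 0.10 for Fabp3. The part of gene detection in the Cd36 levels was not tested.

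**Figure D3:**
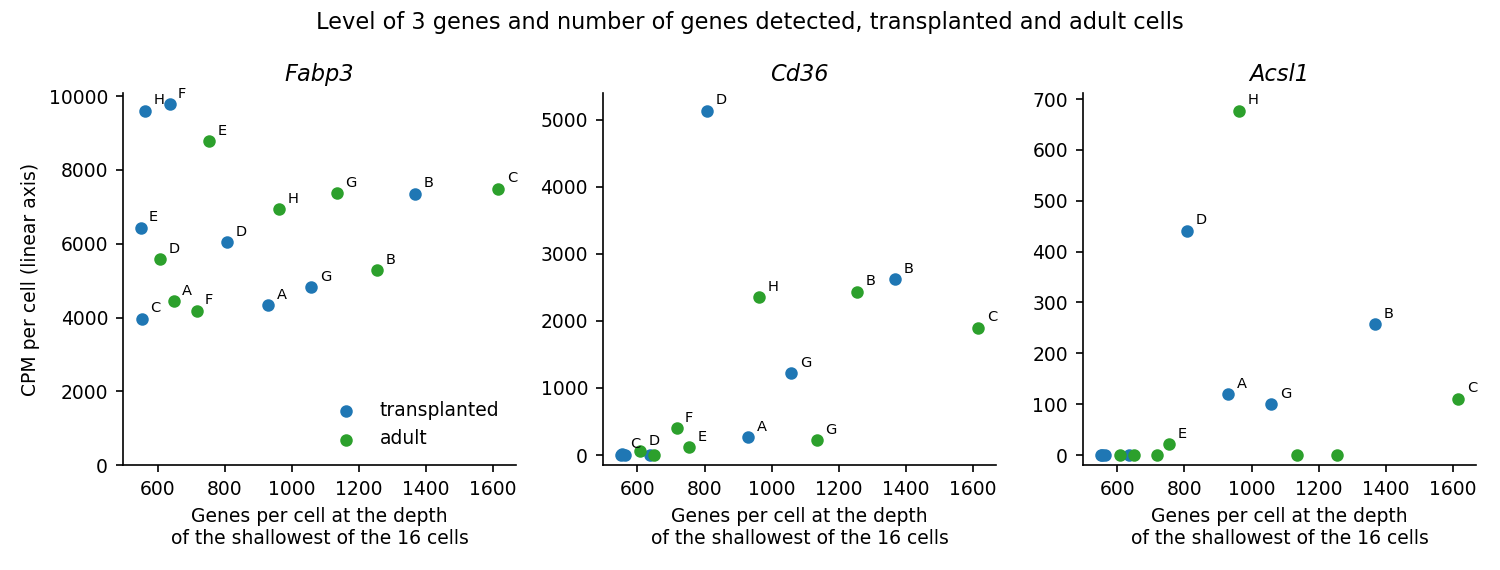
CPM per cell (y axis, linear) of Fabp3, Cd36 and Acsl1 against the genes detected at 88796 counts per cell (x axis) in the 8 transplanted and 8 adult cells; letters name the cells with a count. Cd36 is at or near 0 in the transplanted cells with 549 to 636 genes, where Fabp3 runs from 3975 CPM in cell C to 9778 CPM in cell F.

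The genes whose profile over the 24 cells was most like that of each member were ranked by Spearman's rho among up to 1151 others with at least 50 CPM in a group and counts in at least 6 cells. Over 24 cells that differ between groups in depth and in what was counted, such values describe the groups as much as the cells. For Fabp3 they were Cox5b (0.89), Cox7a1 (0.88), Ndufb11 (0.84), Cox6a2 (0.84) and Tnnc1 (0.83). For Cd36 they were Atp2a2 (0.83), Ankrd1 (0.82), Idh3a (0.78), Cox8b (0.77) and Acyp2 (0.76). Acsl1 came nearest to Etfdh (0.69) and Cfl2 (0.68), and Fabp4 to Pet100 (0.68) and Mrpl34 (0.61), both resting on 8 or fewer cells with a count. Over the 16 transplanted and adult cells alone, Fabp3 was nearest to Psmc2 (0.75), Churc1 (0.73) and Cox5b (0.69), and Cd36 to Eif4g2 (0.82), Atp2a2 (0.81) and Tmem126a (0.77). Cox5b and Atp2a2 were thus among the 5 nearest of Fabp3 and of Cd36 in both rankings.

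Of the other 8 genes of the fatty acid binding protein family only Fabp5, the epidermal form, was listed. It had 9 counts in 1 cultured cell and none in the other 23 cells, under the minimum of 10 counts. Fabp3 and Fabp4 were therefore the family members whose levels could be compared.

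Other genes of uptake sit beside CD36 at the membrane or in the capillary, and those measured were higher than in culture, though single cells carried several of them. Lpl, Vldlr and Cav3 were the 3 of 3 at least 2-fold higher in transplanted cells, where 22.5% of all genes were, and none kept the call without each cell in turn. The same 3 genes and Got2 were the 4 of 4 higher in adult cells, where 23.0% of all genes were, and all 4 kept it. Lpl, the lipoprotein lipase that frees fatty acids from lipoproteins, had counts in 3 cultured, 8 transplanted and 8 adult cells, at 660 CPM, 1390.01 CPM and 2105 CPM summed. It was 2.11-fold higher in transplanted than in cultured cells (1.77 to 2.53), 23.0-fold without cultured cell H, which held 125 of 136 counts, and 1.49-fold without cultured B. In adult cells it was 3.19-fold higher than in the same cultured cells (2.69 to 3.82) and 34.9-fold without cultured H. Unlike Fabp3, then, Lpl was found in culture at a level that 1 cell decided. Got2, the mitochondrial aspartate aminotransferase also described as a plasma membrane fatty acid binding protein, was the one uptake gene to set adult apart from transplanted cells under each cell left out. It had 374 counts in 7 adult cells and 4 counts in transplanted cells, 95.8-fold higher in adult (37.1 to 353), 56.1-fold without adult E and 347-fold without transplanted B.

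Among genes of acyl-CoA synthesis, binding and hydrolysis, which share a substrate or product with ACSL1, 2 of 4 measured were higher in transplanted cells than in culture (Acss1 and Acot13) and Acsl4 was lower. In adult cells 2 of 6 were higher, the same 2 genes, and Acsl4 was lower. Over all genes 22.5% and 23.0% were higher and 64.0% and 62.1% lower. In both comparisons the calls of Acot13 and Acsl4 held without each cell in turn and that of Acss1 did not, its adult bound being 0.687 times the floor without adult G. Acot13, an acyl-CoA thioesterase associated with mitochondria, had 10 counts in culture, 2502 in 7 transplanted cells and 3672 in 8 adult cells. It was 39.6-fold higher in transplanted (21.5 to 82.7) and 59.5-fold higher in adult (32.3 to 124) than in cultured cells, and 358-fold and 538-fold without cultured cell A. Acsl4, a synthetase that favours arachidonic acid, had 13 counts in 2 cultured cells and 0 in the 16 others, at least 27.4-fold lower in transplanted cells and 9.32-fold without cultured A. Dbi, the acyl-CoA binding protein, lay within 2-fold of culture in transplanted (1.09-fold lower, 0.865 to 1.35) and adult cells (1.32-fold higher, 1.07 to 1.65). Without cultured cell G, which held 69 of its 96 cultured counts, it was 2.92-fold and 4.18-fold higher. Acsl1 and its relatives therefore had no common direction.

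The carnitine shuttle, which takes the product of ACSL1 into mitochondria, had no common direction either. In transplanted cells Cpt2 and Crat were higher and Cpt1c and Slc25a20 lower than in culture, of 4 measured. In adult cells Cpt2, Crat and Slc25a20 were higher and Cpt1c lower, of 4. Over all genes 22.5% and 23.0% were higher and 64.0% and 62.1% lower, and none of these calls held without each cell in turn. Crat, carnitine acetyltransferase, was 4.14-fold higher in transplanted than in cultured cells (2.82 to 6.33), 1.14-fold without transplanted E and at least 26.3-fold without cultured B. Cpt1b, the muscle form of the outer membrane enzyme, had 0, 1 and 2 counts in cultured, transplanted and adult cells and was not measured.

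Beta oxidation enzymes, which consume the fatty acid that the members supply, were higher in the same comparisons as Fabp3 and Cd36. All 15 measured genes of the 17 listed were at least 2-fold higher in transplanted than in cultured cells, with a median log2 ratio of 4.44, against 22.5% and -5.63 over all genes, or 4.27 against -4.04 with zeros set to the floor. With at least 50 counts over both groups 44.1% of all genes were higher. All 15 were higher in adult cells as well, with a median of 4.55, against 23.0% and -3.85, and both counts share the cultured cells. Leaving out each cell in turn, 14 and 13 of them kept the call, against 8.96% and 9.28% of all measured genes. Etfb, an electron transfer flavoprotein subunit, was 17.8-fold higher in transplanted than in cultured cells (13.7 to 23.4) and 26.6-fold without cultured G. Acaa2, the thiolase of the last step, was 22.0-fold higher in transplanted (12.8 to 41.4) and 30.6-fold higher in adult cells (17.9 to 57.6), and at least 67.1-fold and 93.5-fold without cultured B. Etfa, the partner of Etfb, had the highest ratio of those with cultured counts, 123-fold in transplanted cells (42.2 to 599) and 337-fold without cultured F. Between adult and transplanted cells 13 of 16 were within 2-fold, with a median log2 ratio of 0.00, and Acadvl, Eci1 and Eci2, named because the count is small, were lower in adult, where 34.8% of all genes were. Of these 3 only Acadvl kept the call without each cell.

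**Figure D4:**
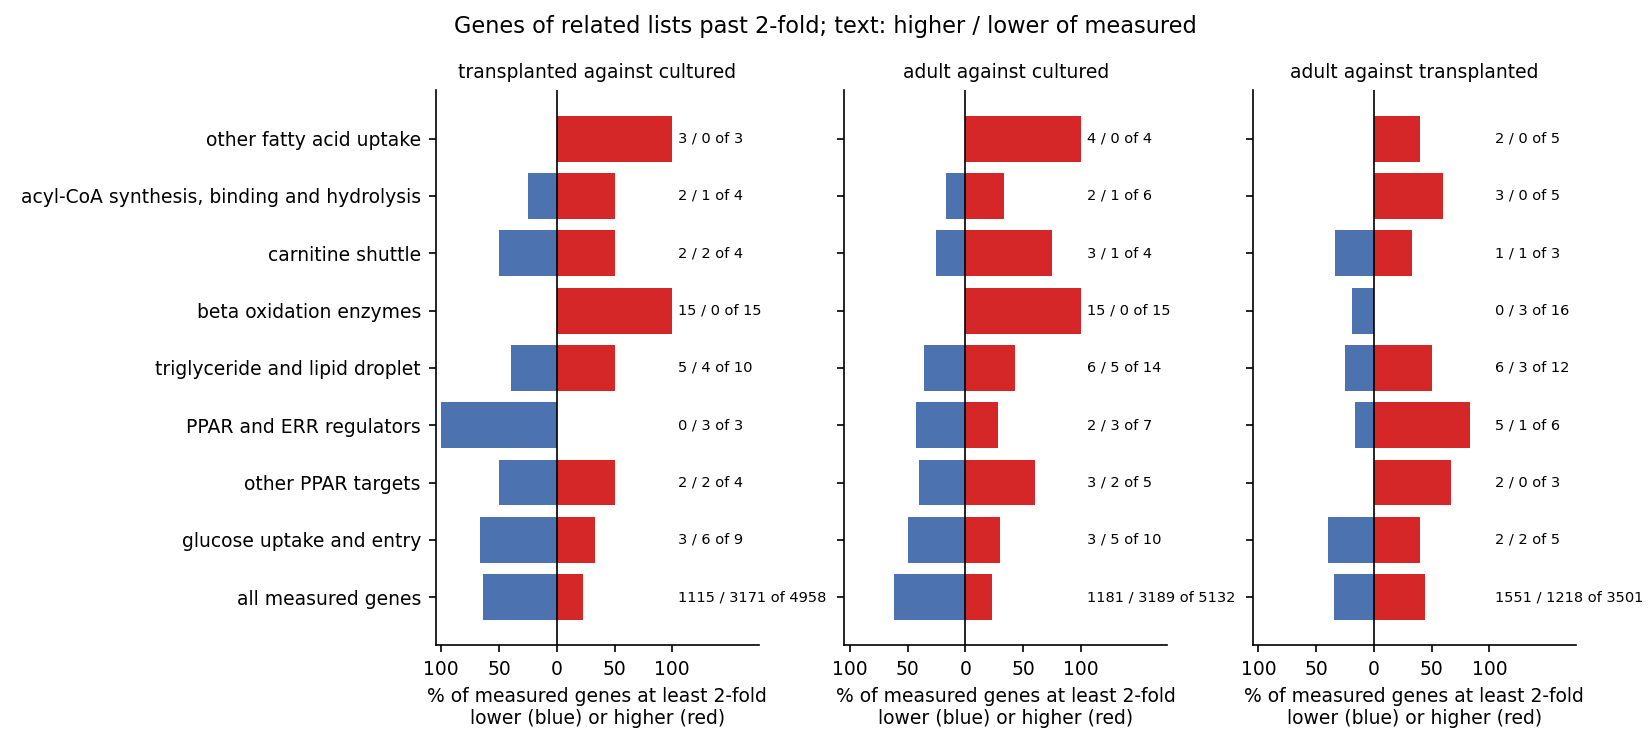
Percent of the measured genes of each related list (y axis) that were at least 2-fold lower (blue, to the left) or higher (red, to the right) in each of the 3 comparisons (x axis), with the counts written beside the bars and all measured genes in the last row. All 15 beta oxidation genes are higher against culture, where 22.5% and 23.0% of all genes are, and 13 of 16 show no 2-fold difference between adult and transplanted cells.

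Genes of triglyceride and lipid droplets, which include lipases such as Mgll, were mixed. Plin3, Dgat2, Agpat2, Agpat3 and Fitm1 were higher and Mgll, Dgat1, Lpin1 and Hilpda lower in transplanted cells than in culture, of 10 measured, where 22.5% of all genes were higher and 64.0% lower, and only the call of Fitm1 held without each cell. Fitm1, a muscle protein of lipid droplet formation, was 20.8-fold higher in transplanted (9.51 to 56.8) and 19.3-fold higher in adult cells (8.81 to 52.7), and at least 37.6-fold and 34.8-fold without cultured A. The adult ratio was 12.7-fold without adult D. Of 14 measured in adult cells 6 were higher and 5 lower than in culture, against 23.0% and 62.1% of all genes, and the calls of Plin4, Cidea and Fitm1, all higher, held without each cell. Cidea, a lipid droplet protein, had counts in 4 adult cells alone and was at least 187-fold higher than in transplanted cells, 37.3-fold without adult D.

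Regulators known to act on the members' genes had few counts in most cells. The highest was Rxrg, a retinoid receptor that pairs with PPARs, with 333 counts (262 CPM) in adult cell F and none elsewhere. Ppara, the PPAR most tied to fatty acid use in the heart, had 0, 8 and 30 counts in cultured, transplanted and adult cells. Ppargc1a, a coactivator of mitochondrial genes, had 15, 25 and 3. All 3 measured of the 11 listed PPAR and ERR regulators, Ppargc1a, Esrrg and Lpin1, were lower in transplanted cells than in culture, where 64.0% of all genes were lower, and only the call of Esrrg held without each cell. In adult cells Rxrg and Esrra were higher and the same 3 genes lower than in culture, of 7 measured. Over all genes 23.0% were higher and 62.1% lower there, and again only the call of Esrrg held. Against transplanted cells 5 of 6 were higher in adult, where 44.3% of all genes were, and Ppargc1a was lower, and none of these calls held. Of the other PPAR targets, Mlycd and Acaa2 were higher and Pdk4 and Slc25a20 lower in transplanted cells than in culture, of 4 measured. In adult cells Mlycd, Acaa2 and Slc25a20 were higher and Pdk4 and Plin2 lower than in culture, of 5 measured. Over all genes 22.5% and 23.0% were higher and 64.0% and 62.1% lower. Only the calls of Mlycd and Acaa2 held, in both comparisons.

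Genes of glucose uptake and entry were read for comparison. In transplanted cells 6 of 9 measured were lower and Pfkm, Pdha1 and Pdk2 higher than in culture, and in adult cells Slc2a1, Slc2a3, Hk1, Pdk1 and Pdk4 were lower and Slc2a4, Hk2 and Pfkm higher, of 10. Over all genes 64.0% and 62.1% were lower and 22.5% and 23.0% higher. Without each cell in turn the lower calls of Slc2a1, Hk1 and Pdk1 held in both comparisons, and of the higher ones Pdha1 in transplanted and Hk2 in adult cells. Slc2a1, the fetal glucose transporter, had 22 counts in 3 cultured cells and none elsewhere, at least 46.3-fold lower in transplanted cells and 13.9-fold without cultured F. Slc2a4, the insulin-responsive transporter, had 0, 7 and 101 counts. Slc2a1 thus went the other way from Cd36 against culture, but so did most genes, with 64.0% and 62.1% lower. Of its 22 cultured counts 16 were in cell F.

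Scaling moved the comparisons with cultured cells more than those between adult and transplanted cells. TMM factors shifted every log2 ratio against culture by 0.92 and that of adult to transplanted by 0.00. They put Fabp3 at 2799-fold above culture in transplanted and 2449-fold in adult cells, raised the bound of Cd36 to 129-fold in transplanted and 119-fold in adult cells, and put Acsl1 at 2.94-fold and 3.83-fold above culture. With each cell weighted equally, Acsl1 was 4.29-fold higher in transplanted than in cultured cells and 0.881 times the transplanted level in adult cells. With 0 cultured counts of Cd36 and Fabp4, no scaling can turn their direction against culture, so scaling is no check of that direction.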

How the data were processed

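Counts of RNA per gene were read in 24 single cells from full-length cDNA made with template switching, 19 PCR cycles and Tn5, per the labels' protocols. The deposited values are whole-number read counts per gene and cell, with no stated molecular identifiers. TopHat2 2.1.0, HTSeq, DESeq2 and mm10 are named in the submitters' processing notes, for rat cells too. What each tool did, which annotation and strand setting were used and how the 9595 genes were selected is not given in the sources used here. Groups followed the sample titles, whose letters only name cells. Chi-square per degree of freedom between any 2 cells of a group was at least 12.3, so none counted as a repeat.

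Counts were summed per group and divided by its total. Intervals are exact at 95%: Poisson for CPM, conditional binomial for ratios, Clopper-Pearson for shares. Against 0 counts a ratio is a bound, taken to a group floor of 3 counts, and groups both at or under it get no ratio. Measured genes had at least 10 counts over both groups, and a call is 2-fold. List medians used log2 ratios with a pseudocount of 1 CPM. Thinned values are hypergeometric expectations. GENCODE M21, on the same build, gave positions and lengths for 99.2% of symbols. Members and lists were chosen with earlier results of these data known. Named genes were the members, the 3 measured genes of each list with the highest summed CPM over the compared groups, and the 5 genes nearest each member by Spearman's rho, some of which are not printed. Fabp5, Cpt1b, Slc2a4, Ppara, Zcchc17, Ly6c1 and Pecam1, and genes in counts of 5 or fewer, were added after their values were seen, as were the motifs GGGCGG and CCAAT. Alternatives were TMM factors (edgeR 4.0.16) and DESeq2 1.42.0 size factors on the group sums with no model fitted, equal cell weights, totals without Rn45s and Rpph1, minimums of 1 and 50 counts, a 4-fold call, and leaving out each cell, which for named list genes was added later. Python 3.11.15, scipy 1.17.1 and R 4.3.3 were used, and the ratio step was tested on simulated data.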

Additional observations from a re-analysis of the deposited data

Results flagged for a closer look

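In 3 cases a single cell stood far from the other 7 of its group, by a gap to the next cell over 0.526 of the group's range. Chance gives such a gap in about 1 of 20 groups of normally distributed values, and values of single cells need not be so distributed. Where 7 cells are at 0, any count in the eighth gives it by construction, as in the 2 cultured cases. Fabp3 in cultured cell H was at 41.9 CPM, a single count, while the other cultured cells were at 0. Acsl1 in cultured cell B was at 214 CPM, from 13 counts, while the other cultured cells were at 0. Acsl1 in adult cell H was at 677 CPM, from 143 counts, and the next adult cell, C, was at 111 CPM. With 5 adult cells at 0 for Acsl1, the share for normally distributed values does not apply to this case.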

How the results depend on the processing

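No paired analysis was possible because the letters only name cells and no result comes from a test. Leaving out each cell in turn, Fabp3 ran from 436 to 1553 in transplanted against cultured cells, from 381 to 1373 in adult against cultured and from 0.830 to 0.994 in adult against transplanted. Cd36 ran from 29.2 to 92.5, from 43.4 to 76.5 and from 0.637 to 2.16 in the same order. Fabp4 ran from 6.17 to 14.8 against culture and from 0.0110 to 0.0263 in adult against transplanted cells. Acsl1 ran from 0.816 to at least 4.76, from 0.284 to at least 6.17 and from 0.182 to 2.48. The Fabp3 values 436 and 381, the Cd36 values against culture and all Fabp4 values are bounds too. Where a bound is a lower one, the ratio may be higher than the range shows. Genes past 2-fold numbered 3490 to 4307, 3531 to 4345 and 2609 to 2753.

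TMM factors put the bounds against culture at 129 (Cd36, transplanted), 119 (Cd36, adult) and 21.6 (Fabp4). DESeq2 size factors gave 79.5, 69.3 and 13.4 for these, and 0.822 for Fabp3 in adult against transplanted cells. Without Rn45s and Rpph1 the Cd36 bounds were 62.2 and 57.6. Equal cell weights gave 79.5 for Cd36 and 15.0 for Fabp4 in transplanted against cultured cells, 4.29 for Acsl1 there, and 0.957 (Fabp3), 0.809 (Cd36), 0.0108 (Fabp4) and 0.881 (Acsl1, turned) in adult against transplanted. With no minimum, 7276 and 7252 genes were past 2-fold against culture, and with at least 50 counts 1962, 2039 and 1682 in the 3 comparisons, from fewer genes measured. Higher genes were 26.0% of those past 2-fold in transplanted against cultured cells as reported, 51.7% with at least 50 counts, 15.3% with no minimum and 32.4% with TMM, and 27.0%, 51.1%, 16.3% and 34.5% in adult against cultured. Of the list counts, 20 of 162 moved by over 1.5 times under these settings and 58 of 864 without single cells. Thinning to 88796 counts lowered the expected cells with Fabp4 from 3 to 2.96 (transplanted) and with Acsl1 from 3 to 2.95 (adult), and moved the other numbers less. The cause of these moves was not tested. The cultured totals limit what can be seen there, and intervals cover counting error only.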
